A study of Mus musculus with 4 samples.

Results

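The genes described here encode, for the most part, subunits of the respiratory chain and ATP synthase of mitochondria. They were chosen by symbol alone: every gene whose symbol begins with mt-, Nduf, Uqcr or Atp5, or with Cox4, Cox5, Cox6, Cox7 or Cox8, and the 4 genes Sdha, Sdhb, Sdhc and Sdhd. This gave 106 of the 22481 gene symbols in the deposited table, of which 13 are encoded by mitochondrial DNA and 93 by the nucleus. Of the 93, 7 are assembly factors and 4 are other genes, counted here outside the complexes. RNA was measured by sequencing in pancreatic islets, the clusters of endocrine cells in the pancreas, from newborn mice (postnatal day 0) of strain 129sv. Of the 4 libraries, 2 were labelled Mettl3/14nKO and 2 wild-type, and the labels name no treatment. Mettl3 and Mettl14 form the enzyme that places the m6A mark on RNA, and the study asked about RNA modification in newborn islets of this genotype. The sources used here do not give the promoter that drives the deletion, the cells it reaches or the number of animals behind a library. Whether replicates were separate animals is not labelled either, so the p-values measure the spread between 2 libraries a group, and that spread may be technical.

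The respiratory chain passes electrons from NADH (through complex I) or succinate (complex II) to ubiquinone, then through complex III and cytochrome c to oxygen at complex IV. Complexes I, III and IV pump protons across the inner mitochondrial membrane, and complex V, the ATP synthase, uses the resulting gradient to make ATP. In beta cells the ATP made from glucose closes potassium channels at the plasma membrane and so triggers insulin release. Subunits of complexes I, III, IV and V are split between the 2 genomes, while complex II is encoded by the nucleus alone. Mitochondrial DNA is transcribed as long precursors from both strands, later cut into single mRNAs, by a polymerase of its own.

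The libraries were shallow, with 1216498 and 744016 fragments in genes for Mettl3/14nKO and 1255526 and 1617429 for wild-type. Mettl3 had 30 and 9 fragments in the Mettl3/14nKO libraries, against 20 and 47 in the wild-type libraries, and Mettl14 had 24 and 12 against 32 and 54. With edgeR's quasi-likelihood test neither gene passed (log2 fold change -0.25, SE 0.40, adjusted p 0.849 for Mettl3, and -0.71, SE 0.32, adjusted p 0.308 for Mettl14). The part of each gene that was deleted is not named in the labels, so their counts do not check the genotype. Endocrine markers were abundant in every library of this islet tissue, at a summed level of 61020 and 76505 CPM in Mettl3/14nKO, against 98682 and 100816 in wild-type. CPM are fragments scaled to the library total, and scaled CPM, used for single genes, are CPM after TMM scaling between libraries. The other cell types moved with the groups too. Mesenchymal markers summed to 14241 and 10279 against 6975 and 4892 CPM, with 11 of 16 tested genes higher. Leukocyte markers summed to 387 and 710 against 56.6 and 129, with 8 of 15 higher, and endothelial markers to 557 and 359 against 1511 and 1254, with 8 of 15 lower. Of the 16 endocrine markers 5 were lower (Ins1, Ins2, Iapp, Ppy and Pcsk1). No marker of these 4 lists was at 0 in all libraries. Of 9 tested duct markers 2 were higher and 4 lower, of 3 erythroid markers 1 was lower, and of 3 acinar markers none passed. Markers of muscle and brown fat, tissues rich in mitochondria, summed to 3.29 and 4.03 CPM against 12.7 and 13.6 CPM, with 5 of 10 at 0 in all libraries. The part of this difference in cell make-up in any result that follows was not tested, and in whole islets fewer cells of a type and less RNA per cell cannot be told apart.

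Several mitochondrial genes have near-identical relatives or share bases with a neighbour, and this bears on how far their values can be read. The sequences shown mark where a gene departs from an annotated copy or shares bases with a neighbour. They are from the GENCODE M21 transcripts (GRCm38, the assembly also called mm10, from strain C57BL/6J), printed 5′ to 3′. The whole of mt-Nd4l (chrM:9877-10173, plus strand) is shown with capitals marking the 3 bases that lie outside its nuclear copy Gm10222, and the first 60 bases of mt-Nd3 (chrM:9459-9518, plus strand) with a capital marking the base that differs in its copy Gm28438. That substitution is T3C, counted from 1 at the 5′ end of mt-Nd3. The last 40 bases of mt-Nd5 (chrM:13526-13565, plus strand) and of mt-Nd6 (chrM:13552-13591, minus strand) follow, with the 14 bases they share on opposite strands in capitals. The last sequence is mt-Atp8 (chrM:7766-7969, plus strand), with the 43 bases it shares with the start of mt-Atp6 in capitals.
mt-Nd4l: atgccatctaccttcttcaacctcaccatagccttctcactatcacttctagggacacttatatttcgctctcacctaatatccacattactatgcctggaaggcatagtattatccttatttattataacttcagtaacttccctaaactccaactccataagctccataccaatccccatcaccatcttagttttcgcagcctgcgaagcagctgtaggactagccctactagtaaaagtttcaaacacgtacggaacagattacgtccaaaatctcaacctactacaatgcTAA
mt-Nd3 start: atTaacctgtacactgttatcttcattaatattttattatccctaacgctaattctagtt
mt-Nd5 end: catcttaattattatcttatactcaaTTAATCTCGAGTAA
mt-Nd6 end: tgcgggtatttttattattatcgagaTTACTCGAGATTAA
mt-Atp8: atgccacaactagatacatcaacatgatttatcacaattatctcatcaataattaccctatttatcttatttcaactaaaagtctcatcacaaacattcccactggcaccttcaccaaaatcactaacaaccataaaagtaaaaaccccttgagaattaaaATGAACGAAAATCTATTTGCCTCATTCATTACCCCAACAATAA

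The 13 mitochondrially encoded genes fell into a set of 7 abundant genes and a set of 6 low ones, in all 4 libraries. FPKM, the deposited level per kilobase of transcript, allows genes to be compared by level. By mean FPKM over the 4 libraries mt-Co1 stood 6th in the whole table, mt-Nd1 7th, mt-Nd2 12th, mt-Cytb 13th, mt-Nd4 14th, mt-Nd5 15th and mt-Nd6 17th, against 55th for Atp5b, the highest nuclear-encoded member. The most abundant, mt-Co1, which encodes the catalytic subunit of complex IV, had 2614 and 2420 FPKM in Mettl3/14nKO islets, against 2174 and 1963 FPKM in wild-type islets.

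The other 6 genes were far lower, although all are cut from the same plus-strand precursor as mt-Co1. The gene mt-Co2 (complex IV) had 35.1 and 50.2 FPKM in Mettl3/14nKO, against 34.7 and 43.1 FPKM in wild-type. The gene mt-Co3 (complex IV) had 18.1 and 15.96 FPKM against 16.7 and 19.5 FPKM. Both complex IV genes overlapped between the groups in FPKM; in scaled CPM mt-Co2 also overlapped, and mt-Co3 did not (23.0 and 24.7 in Mettl3/14nKO, against 20.3 and 21.2 in wild-type). The 2 small complex I genes rested on at most 6 fragments in a library: mt-Nd4l had 4 and 5 in Mettl3/14nKO, against 5 and 4 in wild-type, and mt-Nd3 had 0 and 2 in Mettl3/14nKO, against 2 and 6 in wild-type. The complex V genes mt-Atp6 and mt-Atp8 had 0 whole fragments in all 4 libraries, where their neighbours on the same precursor had counts. A value of 0 beside such neighbours may be a failed estimate, so these 2 genes are given only as listed at or near 0, at 0.00456 FPKM or less.

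A run of 7 unprocessed pseudogenes on the minus strand of chromosome 1 (chr1:24611535-24616197) holds copies of most of these genes. Copies were sought among annotated transcripts only and counted where at least 100 bases matched at 99% identity or more. Of mt-Co2 99.6% lies in Gm28661, of mt-Atp6 99.6% in Gm10925, of mt-Co3 99.9% in Gm28437, of mt-Nd3 99.1% in Gm28438 and of mt-Nd4l 98.99% in Gm10222. These 5 genes had mean levels of 0.00125 to 40.8 FPKM. The abundant genes mt-Nd4 and mt-Co1 lie in the run in part, with 63.6% and 31.3% of their bases, and no copy was found for mt-Nd1, mt-Nd2, mt-Nd5, mt-Nd6 or mt-Cytb. No annotated copy of at least 100 bases was found for mt-Atp8. An unannotated copy could not have been seen. Its last 43 bases are shared with mt-Atp6, which lies almost wholly in Gm10925. The 233 bases between the copied stretches of mt-Co2 and mt-Atp6 also equal in number the 233 bases between Gm28661 and Gm10925 on chromosome 1. How the submitters assigned fragments that match both places is not stated, the copies are those of C57BL/6J and the mice were 129sv, and their part in the low levels was not tested. Values of the 5 copied genes and of mt-Atp8 are therefore uncertain. Those of mt-Nd4 and mt-Co1 are uncertain too, for the part of each gene that lies in the run. Of the 7 copies Gm10222 was in the table, with 5 and 1 fragments in Mettl3/14nKO, against 1 and 4 in wild-type, beside 4 to 5 fragments for mt-Nd4l. Every deposited identifier was labelled protein coding, and the other copies were not listed. Any fragments assigned to those copies therefore cannot be seen here.

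**Figure D1:**
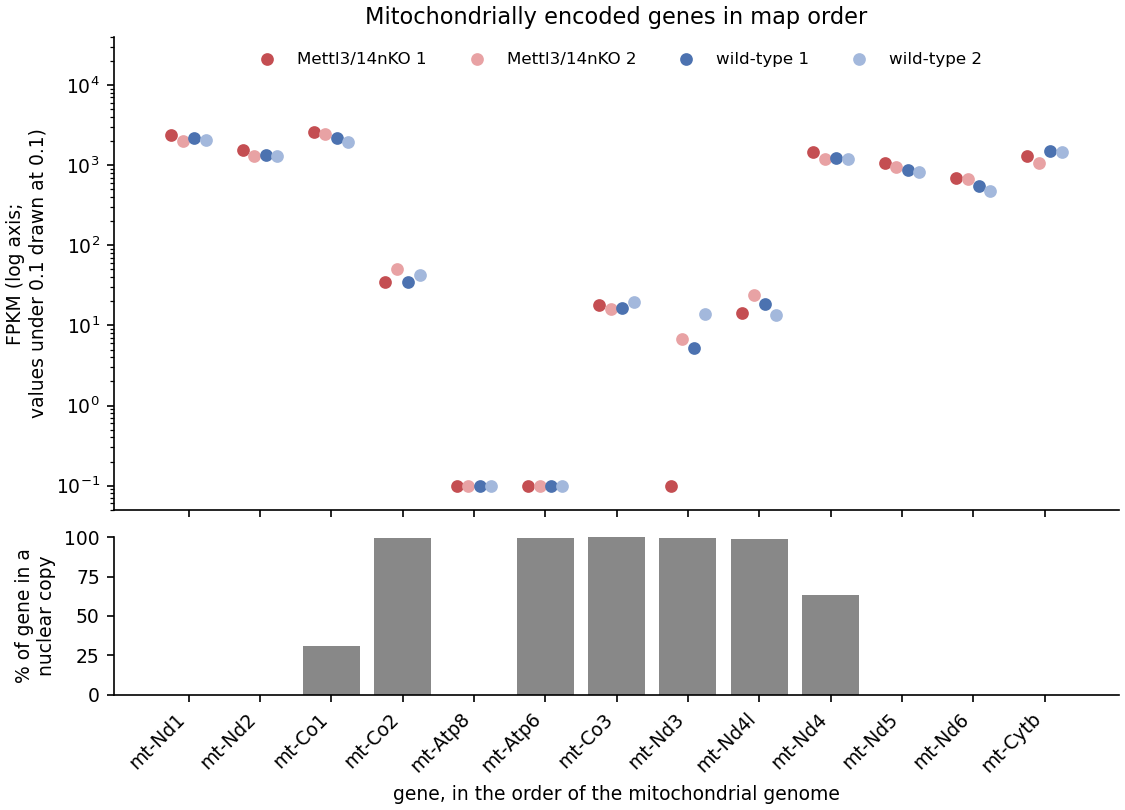
Deposited FPKM of the 13 mitochondrially encoded genes in each library (upper panel, log axis, values under 0.1 drawn at 0.1), in map order. The lower panel gives the percent of each gene that lies in an annotated nuclear copy, by matches of at least 100 bases. The 7 abundant genes lie between 470 and 2614 FPKM in every library, and the 5 genes almost wholly held by a copy have a mean of at most 40.8 FPKM.

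For 6 of the 7 abundant mitochondrial genes both Mettl3/14nKO libraries lay above both wild-type libraries in scaled CPM, and 1 of them passed the test across all genes. That gene, mt-Nd6, rose by a log2 fold change of 0.73 (SE 0.15, edgeR adjusted p 0.0172). Of the 9 mitochondrial genes with enough fragments to be tested, 8 had a positive and 1 a negative fold change, with a median log2 fold change of 0.38, against a median of 0.00 over the 10956 genes tested. Of all genes tested 2.1% passed as higher and 1.61% as lower. In scaled CPM both Mettl3/14nKO libraries lay above both wild-type libraries for 7 of the 9 genes (77.8%), against 22.3% of all genes tested, and no mitochondrial gene had both below. Genes on the same precursors are not independent of each other, so these counts describe the set.

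Complex I held most of the abundant set. The gene mt-Nd6 (chrM:13552-14070) encodes a membrane subunit of complex I and is the only 1 of the 13 on the minus strand of the map. It had 584 and 415 fragments in Mettl3/14nKO islets, against 442 and 438 in wild-type islets, which is 480 and 570 scaled CPM against 358 and 273. Both Mettl3/14nKO libraries were above both wild-type libraries, also in FPKM (691 and 672 against 547 and 470). The call was also made by DESeq2 (adjusted p 0.0154). It was not made by limma on log2(FPKM + 1) (adjusted p 0.446), which called 0 of 12213 genes in the table, nor by edgeR without wild-type replicate 2 (log2 fold change 0.54, adjusted p 0.298). Its last 14 bases are shared with mt-Nd5 on the other strand, and without the strand setting, which is not given, fragments there cannot be told apart.

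The genes mt-Nd5, mt-Nd4, mt-Nd2 and mt-Nd1 encode membrane subunits of complex I, most of them in its proton-pumping arm. For mt-Nd5 (chrM:11742-13565) the levels were 3789 and 4127 scaled CPM in Mettl3/14nKO, against 2999 and 2539 in wild-type, without overlap (log2 fold change 0.52, SE 0.13, edgeR adjusted p 0.0520). DESeq2 gave it an adjusted p of 0.0152. For mt-Nd4 (chrM:10167-11544) they were 3723 and 3739 scaled CPM against 3039 and 2700 (log2 fold change 0.38, SE 0.13, edgeR adjusted p 0.137). For mt-Nd2 (chrM:3914-4951) they were 2796 and 2853 against 2344 and 2042 (0.37, SE 0.13, adjusted p 0.153), and for mt-Nd1 (chrM:2751-3707) 3911 and 4052 against 3477 and 2907 (0.32, SE 0.13, adjusted p 0.250). All 4 genes thus lay higher in both Mettl3/14nKO libraries in scaled CPM, and none passed with edgeR. In FPKM mt-Nd1, mt-Nd2 and mt-Nd4 overlapped between the groups; mt-Nd1 had 2370 and 2017 FPKM against 2196 and 2043. FPKM sits on another scale, on which the median of all genes was at a log2 difference of -0.21, so that a gene at the middle of the table reads as lower in Mettl3/14nKO. In FPKM 3 of the 11 mitochondrial genes with a mean of at least 1 lay above without overlap and 1 below, against 9.83% and 35.4% of all genes.

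Of the mitochondrial genes of complexes III and IV, those of complex IV had positive values and that of complex III a value near 0. For mt-Co1 (complex IV, chrM:5328-6872) the levels were 7673 and 8641 scaled CPM in Mettl3/14nKO, against 6159 and 5017 in wild-type. The groups did not overlap, and the log2 fold change was 0.55 (SE 0.15, edgeR adjusted p 0.0581; DESeq2 adjusted p 0.0114). The low complex IV genes mt-Co2 and mt-Co3 had log2 fold changes of 0.41 (SE 0.29, edgeR adjusted p 0.579) and 0.19 (SE 0.32, adjusted p 0.855). The gene mt-Cytb (chrM:14145-15288), which encodes cytochrome b, the mitochondrially encoded subunit of complex III, was the 1 with a negative value. It had 2665 and 2647 scaled CPM in Mettl3/14nKO, against 2938 and 2633 in wild-type, overlapping, with a log2 fold change of -0.07 (SE 0.12, edgeR adjusted p 0.869). Without wild-type replicate 1 its value was 0.0083, and in FPKM it lay lower without overlap, at 1294 and 1056 in Mettl3/14nKO, against 1484 and 1477 in wild-type.

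How many of the mitochondrial genes passed varied with the test, the filter, the scaling and the libraries used, and so did the share of all genes that passed. With edgeR it was 1 gene, with DESeq2 3 (mt-Nd6, mt-Nd5 and mt-Co1), all of them higher, where DESeq2 called 1.48% of all genes and 0.949% as higher, and with limma 0. Without the filter on low counts edgeR called 5 (mt-Nd6, mt-Nd5, mt-Co1, mt-Nd4 and mt-Nd2), all higher, where it called 5.33% of all genes and 2.92% as higher. Leaving out wild-type replicate 2 left 0 calls, where 0.655% of all genes were called. Leaving out any other library gave 3 (mt-Nd6, mt-Nd5 and mt-Co1), where the share of all genes called was 2.31% with Mettl3/14nKO replicate 1 omitted, 5.82% when replicate 2 of that group was omitted and 3.78% with wild-type replicate 1 omitted.

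Shares are given here of the fragments in the deposited protein-coding genes, not of all fragments sequenced. The 6 low mitochondrial genes, with uncertain values, held 77 and 72 fragments in Mettl3/14nKO, against 75 and 106 in wild-type. The mitochondrial share thus covers little beyond the 7 abundant genes. The mitochondrially encoded genes together took 2.51 and 2.62% in the Mettl3/14nKO libraries, against 2.10 and 1.80% in the wild-type libraries. The means were 2.56 ± 0.0751% in Mettl3/14nKO and 1.95 ± 0.212% in wild-type (SD, n = 2 each, exact permutation test, two-sided p = 0.333, the smallest p that 2 against 2 libraries can give). The share of the 93 nuclear-encoded genes was 0.411 and 0.419% in Mettl3/14nKO, against 0.399 and 0.430% in wild-type. Its means were 0.415 ± 0.00539% in Mettl3/14nKO and 0.414 ± 0.0219% in wild-type (SD, n = 2 each, exact permutation p = 1). There were 6.10 and 6.24 mitochondrial fragments for each nuclear one in Mettl3/14nKO islets, against 5.26 and 4.19 in wild-type islets (log2 ratio of the means 0.39, exact permutation p = 0.333). Wild-type replicate 2 was the lowest of the 4 libraries in both the mitochondrial share and the ratio, and without it the log2 difference in the mitochondrial share was 0.29 and that in the ratio 0.23.

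**Figure D2:**
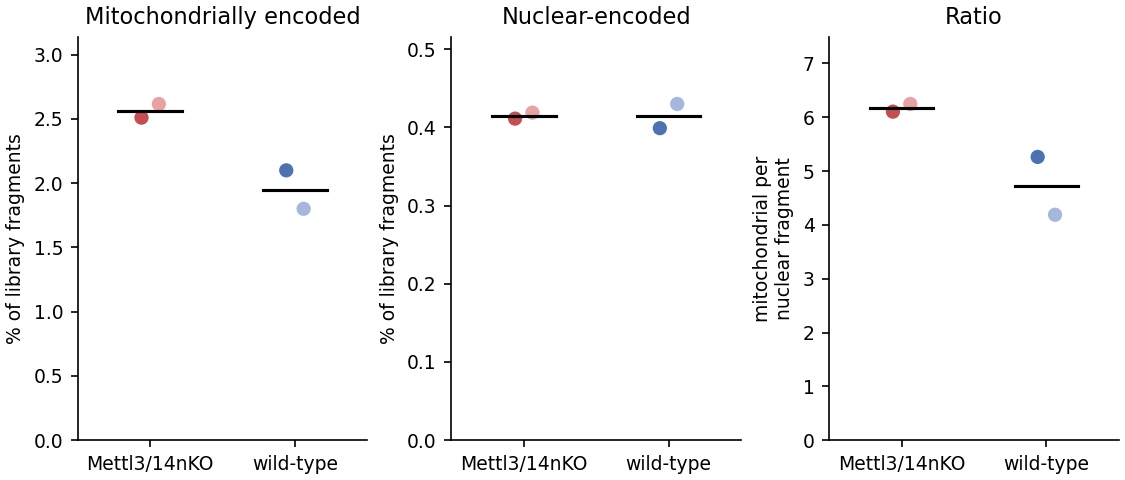
Percent of library fragments in the deposited protein-coding genes that fell in the 13 mitochondrially encoded genes (left) and in the 93 nuclear-encoded genes (middle). The right panel gives the ratio of the 2. A point marks each library (darker: replicate 1, lighter: replicate 2) and a bar the mean. The mitochondrial share is 2.51 and 2.62% in Mettl3/14nKO against 2.10 and 1.80% in wild-type, and the nuclear share overlaps between the groups.

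The make-up of the mitochondrial fragments, a measure that needs no scaling between libraries, did not overlap between the groups for 5 of the 7 abundant genes. Of the fragments in the 7 abundant genes, mt-Cytb held 10.6% (95% exact binomial interval 10.3 to 11.0) and 9.94% (9.52 to 10.4) in the Mettl3/14nKO libraries. In the wild-type libraries it held 13.8% (13.4 to 14.2) and 14.5% (14.1 to 15.0). The intervals of the 2 groups lay apart; they cover counting error only. The gene mt-Co1 held 30.6 and 32.4% in Mettl3/14nKO, against 28.9 and 27.7% in wild-type. The gene mt-Nd5 held 15.1 and 15.5% against 14.1 and 14.0%, and mt-Nd6 held 1.92 and 2.14% against 1.68 and 1.51%. The share of mt-Nd1 lay lower in Mettl3/14nKO, at 15.6 and 15.2% against 16.3 and 16.1%. These 5 genes did not overlap between the groups, and each had an exact permutation p of 0.333, the smallest possible. That value is also the share of library orderings that separate the groups, so some genes would do so by order alone. The shares of mt-Nd2 (11.2 and 10.7% against 11.0 and 11.3%) and mt-Nd4 (14.9 and 14.0% against 14.3 and 14.9%) overlapped (exact permutation p = 0.667 for each). The shares of 1 library sum to a whole, so they are not independent of each other.

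**Figure D3:**
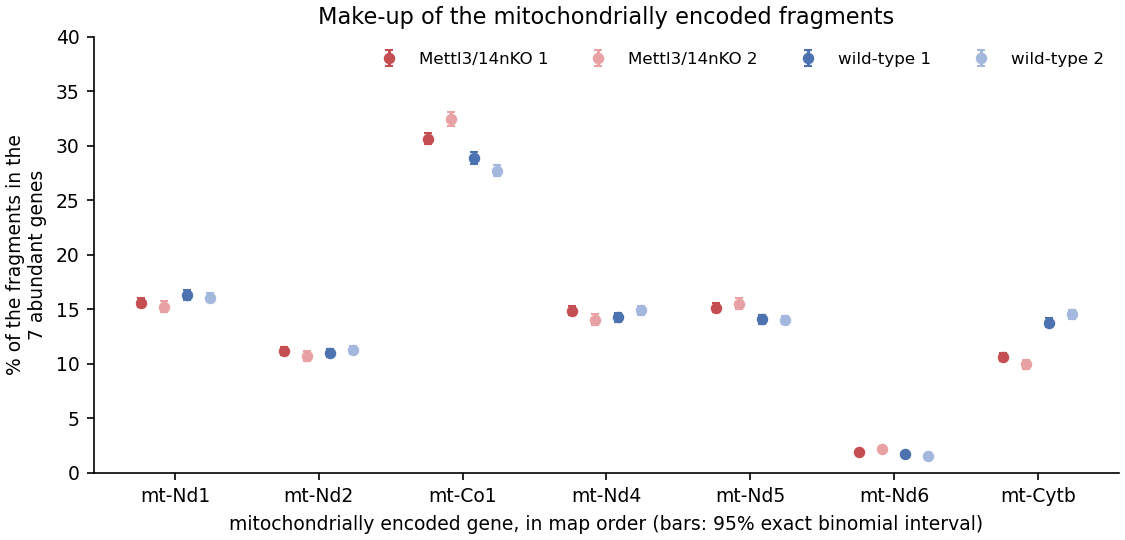
Share of each of the 7 abundant mitochondrially encoded genes in their summed fragments, in percent, for each library, in map order; bars are 95% exact binomial intervals. The share of mt-Cytb is 10.6 and 9.94% in Mettl3/14nKO against 13.8 and 14.5% in wild-type.

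None of the nuclear-encoded genes passed with edgeR, which called 3.71% of all genes tested. Of the 93 genes 80 had enough fragments to be tested, and the 13 that did not had at most 15 in any library. Of the 80, 38 had a positive and 42 a negative fold change, with a median log2 fold change of -0.04 and a range of -0.92 to 0.67. At an unadjusted p under 0.05 there were 2 (Cox7a2l and Ndufa4), against 15.9% of all genes tested, and DESeq2 and limma also called 0. In scaled CPM both Mettl3/14nKO libraries lay above both wild-type libraries for 15 genes (18.8%) and below for 14 (17.5%), against 22.3% and 22.9% of all genes. In FPKM, of the 85 genes with a mean of at least 1, 3 lay above (3.53%) and 36 below (42.4%), against 9.83% and 35.4% of all 12213 genes at that level. On that scale limma gave a median log2 difference of -0.31, against -0.21 over all genes, with 12 of the 85 at an unadjusted p under 0.05, against 12.1% of all genes, and a smallest adjusted p of 0.229. The fold changes of 71 of the 80 were within 0.5 of 0 on the log2 scale. Standard errors ran from 0.119 to 0.616 with a median of 0.29, so small changes were not detectable at this depth, least of all in the genes with few fragments. Summed over the tested genes, nuclear-encoded members had 4091 and 4262 scaled CPM in Mettl3/14nKO, against 4036 and 4314 in wild-type, while the mitochondrial genes summed to 25098 and 26717 against 21369 and 18171.

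**Figure D4:**
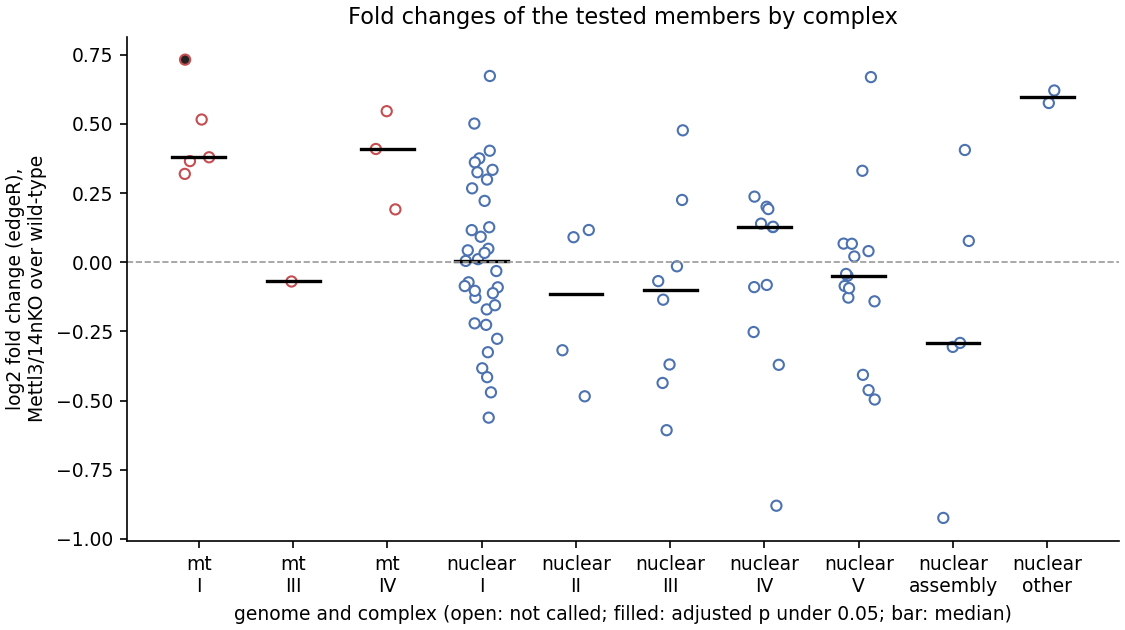
edgeR log2 fold change (Mettl3/14nKO over wild-type) of the 89 tested genes by genome and complex, with a bar for the median of each column; the filled point passed at an adjusted p under 0.05. All 5 tested mitochondrial complex I genes lie above 0, while the nuclear complexes I to V spread around 0 with medians of -0.11 to 0.13.

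Complex I has the most nuclear-encoded subunits, 36 here, of which 35 were tested; 18 had a positive and 17 a negative fold change (median 0.00, range -0.56 to 0.67). The smallest p-values were those of Ndufs5 and Ndufa6, accessory subunits outside the catalytic core. Ndufs5 had 38.6 and 26.1 scaled CPM in Mettl3/14nKO, against 21.1 and 20.6 in wild-type (log2 fold change 0.67, SE 0.31, edgeR adjusted p 0.317). Ndufa6 had 49.3 and 65.9 against 36.5 and 43.1 (0.50, SE 0.25, adjusted p 0.366). Neither overlapped between the groups and neither passed. The highest levels were those of the small membrane subunits Ndufa1, with 85.5 and 77.0 FPKM in Mettl3/14nKO, against 123 and 91.5 FPKM in wild-type, and Ndufa3, with 129 and 56.4 FPKM against 72.7 and 103 FPKM. Ndufs1 and Ndufv1 carry iron-sulfur clusters on the path of electrons out of NADH and were named for that role after their values were seen. Ndufs1 had 55.1 and 68.7 scaled CPM in Mettl3/14nKO, against 60.8 and 63.7 in wild-type, overlapping. Ndufv1 had 45.2 and 37.1 against 34.1 and 33.7, without overlap (log2 fold change 0.30, SE 0.26, edgeR adjusted p 0.672). Ndufa2, also named after its values were seen, was not tested, with 4 and 4 fragments in Mettl3/14nKO, against 5 and 15 in wild-type.

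Complex II is succinate dehydrogenase, also an enzyme of the citric acid cycle, and 2 of its 4 genes had positive and 2 negative fold changes. Sdha, the flavoprotein that oxidises succinate, had 145 and 154 scaled CPM in Mettl3/14nKO, against 149 and 131 in wild-type (log2 fold change 0.09). Sdhb, the iron-sulfur subunit, had 32.1 and 37.1 against 42.2 and 53.1, without overlap (-0.48, SE 0.26, edgeR adjusted p 0.415). The membrane anchors Sdhc and Sdhd overlapped, with 40.3 and 37.1 against 39.7 and 32.5 scaled CPM for Sdhc and 38.6 and 57.7 against 47.0 and 68.7 for Sdhd. In FPKM Sdhc lay the other way without overlap, at 8.20 and 7.14 in Mettl3/14nKO, against 12.9 and 12.1 in wild-type (limma log2 difference -0.64, adjusted p 0.378). Sdhc was named, to complete the complex, after its values were seen.

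In complex III, which passes electrons to cytochrome c, 2 of the 8 nuclear genes had positive and 6 negative fold changes (median -0.10). Uqcrh, the hinge protein that helps dock cytochrome c, had 44.4 and 42.6 scaled CPM in Mettl3/14nKO, against 24.3 and 37.5 in wild-type (log2 fold change 0.48, SE 0.29, edgeR adjusted p 0.481). Uqcrq, a small subunit, had 25.5 and 30.2 against 34.9 and 39.3 (-0.44, SE 0.28, adjusted p 0.524). These 2 did not overlap and lay in opposite directions. Uqcrb and Uqcr10, also small subunits, had the highest mean FPKM of this complex, with 58.7 and 47.7 against 96.5 and 73.4 FPKM for Uqcrb and 61.2 and 41.6 against 44.7 and 63.2 FPKM for Uqcr10. The lowest fold change, that of Uqcr11 (-0.61, SE 0.44, edgeR adjusted p 0.581), came with 22 and 18 fragments in Mettl3/14nKO, against 20 and 73 in wild-type, so that wild-type replicate 2 alone was high; it was named after its values were seen.

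Complex IV, cytochrome c oxidase, has 19 nuclear-encoded genes here, Ndufa4 and Ndufa4l2 among them, since Ndufa4 was first assigned to complex I and later found in complex IV. Of the 11 tested 6 had a positive and 5 a negative fold change (median 0.13). Ndufa4 lay lower in both Mettl3/14nKO libraries, with 13 and 11 fragments against 24 and 42 in wild-type, or 10.7 and 15.1 against 19.5 and 26.2 scaled CPM (log2 fold change -0.88, SE 0.38, edgeR adjusted p 0.278). Its relative Ndufa4l2 had 14 and 2 fragments against 8 and 5 and was not tested. Cox8a, a small subunit and the highest of the nuclear complex IV genes by FPKM, had 130 and 130 scaled CPM in Mettl3/14nKO, against 106 and 114 in wild-type (0.24, SE 0.15, adjusted p 0.528). In FPKM the same gene overlapped, at 173 and 142 against 150 and 181. Cox6c had 125 and 105 FPKM in Mettl3/14nKO, against 120 and 145 FPKM in wild-type.

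Several complex IV subunits have a paralogue used in particular tissues, and of the pairs described next 1 form made up nearly all fragments in both groups, unlike Ndufa4 and Ndufa4l2. Cox4i1 had 120 and 67 fragments in Mettl3/14nKO, against 86 and 153 in wild-type, with at most 1 fragment in a library for Cox4i2, known from lung. Cox6a1 had 87 and 64 against 105 and 132, with at most 1 fragment for Cox6a2, the heart and skeletal muscle form. Cox6b1 had 63 and 42 against 77 and 107, with at most 1 for Cox6b2, a testis form. Cox7a2 had 19 and 15 against 19 and 27, and the muscle forms Cox7a1 and Cox8b had 0 fragments in all 4 libraries, a count that allows up to 3 fragments in a library. Cox7b2 and Cox8c were at 0 in all 4 libraries as well. None of the tested forms passed (log2 fold changes 0.20 for Cox4i1, -0.09 for Cox6a1, -0.25 for Cox6b1 and 0.13 for Cox7a2).

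The 15 nuclear genes of complex V were all tested, with 6 positive and 9 negative fold changes (median -0.05, range -0.50 to 0.67). Atp5b and Atp5a1 encode the beta and alpha subunits that form the catalytic head. Atp5b had 441 and 408 scaled CPM in Mettl3/14nKO, against 466 and 473 in wild-type (log2 fold change -0.14, SE 0.12, edgeR adjusted p 0.657), and Atp5a1 had 436 and 448 against 443 and 470 (-0.05). With their many fragments these 2 genes had among the smallest standard errors of the set. Atp5c1, the gamma subunit of the central stalk, had 74.8 and 113 scaled CPM in Mettl3/14nKO, against 113 and 129 in wild-type (-0.41, SE 0.20, edgeR adjusted p 0.348). Its groups were separated by less than 1 CPM, and leaving out Mettl3/14nKO replicate 2 gave -0.69 with an adjusted p of 0.0423. Atp5d, the delta subunit of the same stalk, had 78.1 and 104 against 71.4 and 71.2 (0.33, SE 0.20, adjusted p 0.472). The genes Atp5g1, Atp5g2 and Atp5g3 encode the same mature subunit of the membrane ring; their log2 fold changes were -0.46, 0.07 and 0.02, and Atp5g1 was the 1 of them without overlap (32.1 and 30.2 against 49.5 and 37.5 scaled CPM).

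Assembly factors of complex I were low, and 5 of 7 were tested. Their fold changes were imprecise, as with Ndufaf7, a methyltransferase that acts on a complex I subunit, which had 5 and 7 fragments in Mettl3/14nKO, against 8 and 27 in wild-type (log2 fold change -0.92, SE 0.62, edgeR adjusted p 0.543). Here again wild-type replicate 2 alone was high. Ndufaf1 had 8 and 9 fragments in Mettl3/14nKO, against 17 and 14 in wild-type, Ndufaf2 had 14 and 4 against 12 and 7, and Ndufaf4 had 24 and 9 against 25 and 33. Ndufaf5 and Ndufaf6 had at most 5 fragments in a library and were not tested, nor were Atp5s, with at most 14, and Atp5l-ps1, with 0. Cox7a2l, which encodes a factor that joins complexes III and IV into supercomplexes, had the smallest p of the nuclear-encoded genes. It had 152 and 93 fragments in Mettl3/14nKO, against 105 and 127 in wild-type, or 125 and 128 against 85.2 and 79.3 scaled CPM, and did not overlap in FPKM either (65.3 and 54.8 against 46.3 and 47.9). Its log2 fold change was 0.62 (SE 0.16, edgeR adjusted p 0.0548), so it did not pass; without the filter on low counts its adjusted p was 0.0311, and with DESeq2 it was 0.524. It was named after its values were seen.

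**Figure D5:**
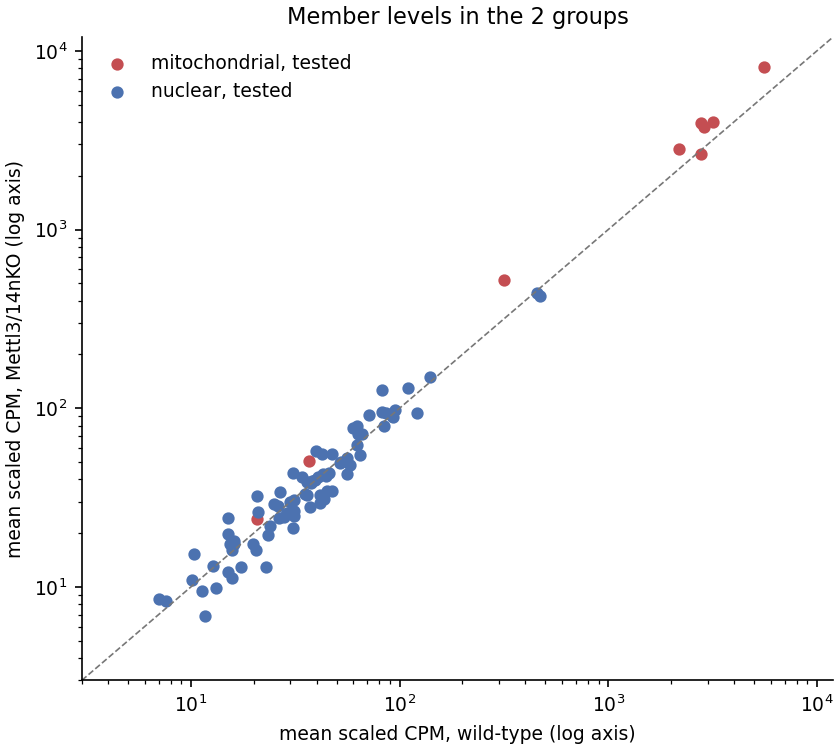
Mean scaled CPM of the 89 tested genes in Mettl3/14nKO (vertical, log axis) against wild-type (horizontal, log axis), with 2 libraries a group; the dashed line marks equal levels. The mitochondrial genes with the highest levels lie above the line, mt-Cytb excepted, and the nuclear-encoded genes lie on both sides of it.

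Genes that build, feed or control the chain were counted in 8 lists outside the symbol rule, and 1 gene in them passed with edgeR. Over all genes tested edgeR called 3.71%, and 2.1% as higher. In the list of adenine nucleotide exchange and coupling 1 of 6 tested genes rose, Ucp2, which encodes an uncoupling protein of the inner membrane. It had 317 and 337 scaled CPM in Mettl3/14nKO islets, against 207 and 230 in wild-type islets (log2 fold change 0.58, SE 0.13, edgeR adjusted p 0.0259). In FPKM it overlapped, at 50.3 and 41.0 against 44.3 and 54.0. DESeq2 did not call it (adjusted p 0.141), nor did limma on log2(FPKM + 1) (0.868), nor did edgeR without wild-type replicate 1 (0.161) or wild-type replicate 2 (0.189).

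The remaining lists held no called gene. For transcription and replication of mitochondrial DNA 3 of 8 tested genes had positive and 5 negative values (median log2 fold change -0.11); Tfam, which packages mitochondrial DNA and starts its transcription, had 18.9 and 20.6 scaled CPM in Mettl3/14nKO, against 23.5 and 34.3 in wild-type (-0.58, SE 0.33, edgeR adjusted p 0.451), and Polg2, the accessory subunit of the mitochondrial DNA polymerase, had 10.7 and 17.9 against 8.11 and 3.75 (1.24, SE 0.55, adjusted p 0.289). For processing and stability of mitochondrial RNA it was 8 positive and 9 negative of 17, with Fastk at 0.44 (adjusted p 0.354) and Hsd17b10, a subunit of the enzyme that cuts mitochondrial precursor RNA, at 0.71 (adjusted p 0.395). Among 9 regulators of respiratory genes 5 were positive and 4 negative. There the coactivator gene Ppargc1b had 14.0 and 15.1 scaled CPM in Mettl3/14nKO, against 5.68 and 4.37 in wild-type (1.52, SE 0.50, edgeR adjusted p 0.132), while in FPKM it overlapped (1.85 and 1.66 against 5.26 and 0.660). The transcription factor gene Nrf1 had 51.0 and 44.0 against 74.6 and 65.6 (-0.54, SE 0.22, adjusted p 0.223). In scaled CPM neither overlapped between the groups, and they lay in opposite directions.

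Of 14 tested electron carriers and their donors 10 had positive and 4 negative values. Cycs, which encodes cytochrome c, had 57.6 and 53.6 scaled CPM in Mettl3/14nKO, against 84.3 and 68.1 in wild-type (log2 fold change -0.44, edgeR adjusted p 0.325), and Gpd2, the glycerol phosphate dehydrogenase that passes cytosolic electrons to ubiquinone, had 188 and 194 against 149 and 150 (0.35, adjusted p 0.213). In FPKM Gpd2 lay the other way, with 15.9 and 14.2 in Mettl3/14nKO, against 19.0 and 23.0 in wild-type. Of 26 tested assembly factors not covered by the symbol rule 14 were positive and 12 negative, led by Ttc19 (-0.75, adjusted p 0.170) and Cox14 (-0.82, adjusted p 0.288), factors of complexes III and IV. Of 17 genes of pyruvate dehydrogenase and the citric acid cycle 7 were positive and 10 negative, led by Idh3b (0.33, adjusted p 0.530) and Mdh2 (-0.23, adjusted p 0.565). Of 16 genes of outer membrane channels and protein import 7 were positive and 9 negative, led by Timm23 (-1.13, adjusted p 0.180) and Vdac3 (-0.54, adjusted p 0.344). In the nucleotide exchange list Slc25a5, an ADP/ATP carrier, was the next after Ucp2 (-0.28, edgeR adjusted p 0.372). Slc25a5 was named after its values were seen.

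As a set, the nuclear-encoded genes differed from all genes in features that the symbol rule did not use. Each promoter motif below was held by a minority of them. Their longest transcripts had a median length of 1082 bases, against 2860 bases over the table, so a given FPKM rests on fewer fragments for them than for most genes. RefSeq promoters (GRCm38.p6, 250 bases before to 50 after the start) were found for 73 of the 93. Matches were sought on either strand. GCGCATG, a core of the motif of the factor NRF-1, was held by 15 of the 73 (20.5%). Of all 27025 genes with a RefSeq promoter, detected here or not, 4.41% held it. CCGGAAG, an ETS family core, was in 17 (23.3%) against 9.93%, and AAGATGG, a YY1 core, in 10 (13.7%) against 7.28%; the NRF-1 and YY1 cores are shortened forms, chosen after longer ones had been searched. None of the genes with a match was called, and their median log2 fold changes were -0.08 over 14 tested genes with the NRF-1 core, -0.13 over 17 with the ETS core and -0.10 over 10 with the YY1 core, against -0.04 over all 80 tested nuclear-encoded genes.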

How the data were processed

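Total RNA of islets was depleted of ribosomal RNA, made into libraries with a directional kit and sequenced from both ends, per the labels' protocols. Cutadapt 1.9.3, HISAT2 2.0.4, Cufflinks, Cuffdiff and the build mm10 are named in the submitters' processing notes. The sources used here do not give the annotation release, the strand setting or the handling of fragments with several matches. Per the file headers, the table holds FPKM (fragments relative to transcript length and library size) deposited by the authors, and estimated counts deposited by the authors that are not whole numbers. In each library 92.3 to 93.2% of the estimated counts lay within 0.01 of a whole multiple of 1 step (0.968 and 1.33 for Mettl3/14nKO replicates 1 and 2, 0.982 and 0.835 for wild-type). They were divided by that step and rounded to whole fragments, 744016 to 1617429 per library.

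Genes of 1 symbol were summed, which touched no gene described here. The main test was edgeR 4.0.16 (filterByExpr, TMM, glmQLFit, glmQLFTest, two-sided) over all 10956 genes that passed the filter, with Benjamini-Hochberg adjustment at 0.05. DESeq2 1.42.0 and limma 3.58.1 (log2(FPKM + 1), mean FPKM of at least 1) were alternatives, run in R 4.3.3. Shares were compared with an exact permutation test over libraries (scipy 1.17.1). Copies of mitochondrial genes were found with blastn 2.17.0 in the GENCODE M21 transcripts. The scripts were tested on simulated data. The genes and lists were chosen with earlier results of these data known. Genes were named by a rule: all mitochondrial genes, called genes, the 2 smallest p-values and 2 highest mean FPKM in each complex, paralogue pairs, and in each list the called genes or the 2 smallest p-values. Other tested genes given with values are said to have been named after their values were seen, and members not tested are named to account for them. Fewer fragments in Mettl3/14nKO replicate 2 make its values the least precise.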

Additional observations from a re-analysis of the deposited data

How the results depend on the processing

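Results were recomputed under 13 alternatives, gene by gene for 54 of the genes named with a test. Ndufs1, Ndufv1, Sdhc, Uqcr11 and Slc25a5 were not among the 54, nor were Mettl3, Mettl14 and the cell markers. For the 54 the direction and the side of the threshold were the same with RLE factors and with the replicate block. The same held with estimated counts rounded as deposited. The number of mitochondrial genes called was 1, with 3.71% of all genes called. It was 3 with DESeq2 (1.48% of all genes), 3 with library totals only (3.84%), 2 with the mitochondrial genes left out of the totals (3.69%), 5 without the filter on low counts (5.33%), and 0 with limma at a pseudocount of 1 and 0 at 0.1 (0% of all genes in each). It was 0 to 3 when 1 library was left out (0.655 to 5.82% of all genes). The number of nuclear-encoded genes called was 0; it was 1 without the filter, 0 to 1 when 1 library was left out, and 0 under the other alternatives. The causes were not tested. The labels do not say whether the replicate numbers pair the libraries. The correlation of the replicate 1 deviations between groups was 0.0227 over 10956 genes, which cannot settle it in libraries this shallow. With the replicate block 1 mitochondrial gene and 0 nuclear-encoded genes were called.

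The log2 difference in the mitochondrial share of fragments, 0.39, was 0.53 as a share of summed FPKM, 0.33 without mt-Co1 and 0.29 to 0.51 when 1 library was left out. For the nuclear-encoded share, 0.00, it was 0.17 as a share of FPKM and -0.05 to 0.06 with 1 library left out. For the ratio, 0.39, it was 0.36 with FPKM, 0.32 without mt-Co1 and 0.23 to 0.56 with 1 library left out.

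Among the 54 genes, of those that did not pass, leaving out 1 library in turn turned the sign of 11. The ranges were -0.15 to 0.0083 for mt-Cytb, -0.36 to 0.24 for Ndufa1, -0.20 to 0.73 for Ndufa3 and -0.0052 to 0.18 for Sdha. They were -0.31 to 1.01 for Ndufaf2, -0.74 to 0.16 for Ndufaf1, -0.0016 to 0.45 for Cox4i1 and -0.23 to 0.069 for Cox6a1. For Cox7a2 the range was -0.050 to 0.34, for Atp5g2 -0.19 to 0.36 and for Atp5g3 -0.24 to 0.38. Named genes outside the 54 were not followed in this way. With limma on FPKM, values of the 54 genes are set against the median of all genes. There the sign turned for Atp5g2 (-0.030 and -0.0049 at pseudocounts of 1 and 0.1) and Atp5g3 (-0.034 and -0.0079). It also turned for Gpd2 (-0.25 and -0.24) and, at 1, Ppargc1b (-0.021). Outside the 54, Sdhc had 0.12 with edgeR and -0.64 with limma at a pseudocount of 1, where the median of all genes was -0.21. With 2 libraries a group and under 100 fragments for most nuclear-encoded genes, small changes could not be seen.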
